A study of Drosophila melanogaster with 12 samples.

Results

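The comparison described here is the genotype by age interaction in photoreceptor nuclei of adult flies: for each gene, the log2 difference between Rh1>ClkDN and Rh1>Ctrl at day 10 (D10) minus the same difference at day 1 (D1). All 12 libraries of the series entered it, 3 in each of 4 groups, and 9135 of the 13929 genes in the count table were tested. Every fly carried a nuclear-envelope GFP tag (UAS-GFP-Msp300KASH at attP2) and rh1-GAL4 on the third chromosome in a w; ry[506] background, together with UAS-ClkDN in Rh1>ClkDN and UAS-LacZ in Rh1>Ctrl. Males were kept at 25 degrees C in 12:12 light and dark and collected at Zeitgeber time 9, and the young group is named D1 here although its titles carry D2, because the growth description gives 1 day. Tagged nuclei were enriched from pooled heads, and their RNA was sequenced. The model has limits that hold for every value below: rh1-GAL4 turns on late in pupal life in outer photoreceptors, so at D1 the transgene had been on only briefly, 1 collection time cannot show a rhythm, and the line of UAS-ClkDN is not given in the sources used here.

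Clock (Clk) and Cycle form a bHLH-PAS heterodimer that drives transcription of the clock genes and of many output genes, and period and timeless proteins feed back to silence it. ClkDN lacks the basic region that contacts DNA but still pairs with Cycle, so it keeps Cycle from its targets. In the eye the circadian clock and aging both act on genes of light detection, chaperones and metabolism, and an interaction term asks for which genes the effect of the transgene depended on age.

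The targeted gene followed the labels. Clk averaged 6179 CPM (counts scaled to a common library size) in Rh1>ClkDN at D1, 9110 CPM at D10, 26.5 CPM in Rh1>Ctrl at D1 and 59.4 CPM at D10, and reads from the transgene and from the native gene cannot be told apart. Summed CPM of 10 outer photoreceptor markers lay between 14440 and 18590 in the 6 Rh1>ClkDN libraries and between 39180 and 77710 in the 6 Rh1>Ctrl libraries, and none of the 10 was at 0 throughout. In counts from nuclei of a mixed tissue, fewer photoreceptors and less RNA of these genes per photoreceptor cannot be told apart. By imaging of the eye, the paper reports that Rh1>ClkDN photoreceptors were still intact at D1. It also reports progressive retinal degeneration in Rh1>ClkDN flies kept in light and dark, with an onset between D1 and D10. The part of this degeneration in the D10 values was not tested. Library totals ran from 1356529 counts in replicate 2 of Rh1>Ctrl at D10 to 5635951 counts. Replicate 3 of Rh1>Ctrl at D1 stood apart from every other library in the genes it detected: it had 13097 genes detected against 9267 to 11915, and 2023 genes with at least 3 counts there but none in its 2 fellow replicates, against 8 to 371 for the others. Its outer photoreceptor sum was 39180 against 71190 and 77710 CPM in its fellows, and its accessory gland sum was 39.3 CPM against 3.37 and 7.27 in its fellows, 2.09 to 5.81 in Rh1>Ctrl at D10 and 30.2 to 54.5 in Rh1>ClkDN. Results are therefore given with it and without it. Replicate 2 of Rh1>Ctrl at D10 also lay far from its fellows. The SD of its log2 CPM about the group mean was 0.838. This compares with 0.85 in replicate 3 of Rh1>Ctrl at D1 and 0.352 to 0.703 in the other libraries.

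The effect of ClkDN depended on age for a small set of protein-coding genes. The interaction was called for 56 of 9135 genes (0.613% of genes tested) by edgeR's quasi-likelihood F test (adjusted p under 0.05, Benjamini-Hochberg), while 1167 passed 0.05 before adjustment. It was positive for 39 genes (0.427%), meaning that the ratio of Rh1>ClkDN to Rh1>Ctrl was higher at D10, and negative for 17 genes (0.186%). Among the 51 called genes with more than 3 counts in some library of every group, the size of the interaction ran from 1.37 on the log2 scale for kay to 6.58 for CG7896. All 56 kept their sign in every other fit that tested them. The genotype effect itself was called for 1216 genes at D1 (13.3%) and for 1834 genes at D10 (20.1%), and the age effect for 287 genes in Rh1>ClkDN (3.14%) and 235 genes in Rh1>Ctrl (2.57%). These contrasts share libraries with one another and with the interaction.

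**Figure D1:**
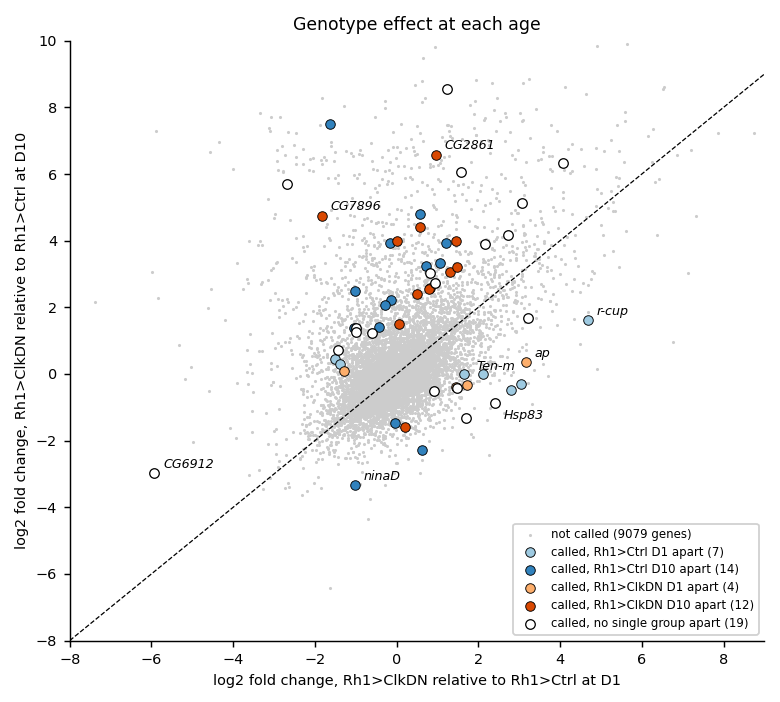
Each point is a gene; the x axis is the D1 log2 fold change of Rh1>ClkDN over Rh1>Ctrl and the y axis the D10 one, with the dashed line at equal effects and colours for the group that stood apart in the 56 called genes. The 39 positive genes lie above the line and the 17 negative genes below it; 6 genes fall outside the axes, and the position of a gene with a group at or near 0 depends on the prior count of the fit.

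The genotype effect was called at both ages with opposite signs for 6 of the 56 genes: CG7896, bt, CG6231 and AstA-R1, an allatostatin A receptor, were lower in Rh1>ClkDN at D1 and higher at D10, while Hsp83 and Prat2, an enzyme of purine synthesis, were higher at D1 and lower at D10. Over all genes tested, Rh1>ClkDN was higher for 8.45% and lower for 4.86% at D1, and higher for 12.2% and lower for 7.93% at D10. In 13 positive genes Rh1>ClkDN was higher at both ages and more so at D10, and in 17 positive genes it was higher at D10 with no call at D1. Of the negative genes, 9 were higher in Rh1>ClkDN at D1 with no call at D10. With age, 1.97% of all genes tested rose and 1.17% fell in Rh1>ClkDN, and 1.32% rose and 1.25% fell in Rh1>Ctrl. Of the called genes, 19 positive ones fell in Rh1>Ctrl with no call in Rh1>ClkDN and 17 rose in Rh1>ClkDN with no call in Rh1>Ctrl. Among negative genes, 8 rose in Rh1>Ctrl alone by these calls, 5 fell in Rh1>ClkDN alone, and Hsp83 rose in both.

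Each gene was then assigned to the group, if any, whose mean log2 CPM lay farther from the nearest other mean than the other 3 means lay from each other. A single group stood apart in this way for 37 of the 56 genes, and in all 37 its 3 libraries did not overlap the other 9. Of all 9135 genes tested, 4255 (46.6%) had a group apart. In 1011 of those 4255 genes (11.1% of all tested) the libraries of that group did not overlap the other 9. These levels also made the interaction, so the shares are a description. The 2 most frequent patterns were a high level in Rh1>ClkDN at D10 alone (11 genes, 19.6% of those called and 7.25% of all tested) and a low level in Rh1>Ctrl at D10 alone (11 genes, 19.6% and 9.72%). Rh1>Ctrl at D1 was the low group for 5 genes (8.93% and 4.79%), and Rh1>ClkDN at D1 was the high group for 3 genes (5.36% and 3.91%). The other 7 genes with a group apart were spread over 4 patterns, and 19 genes (33.9% and 53.4%) had no single group apart.

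**Figure D2:**
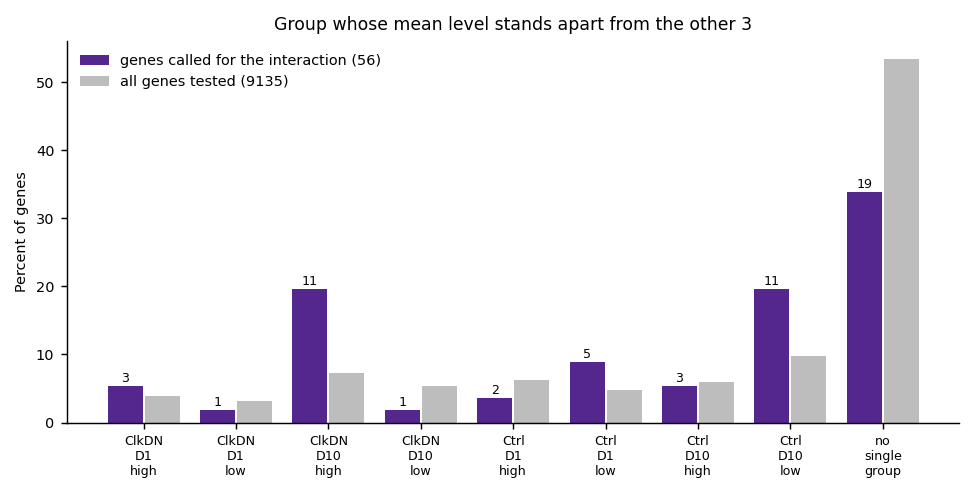
Bars give the percent of genes (y axis) in each pattern (x axis: the group apart and whether it was high or low), in purple for the 56 called genes and in grey for all 9135 tested; numbers over the purple bars are genes. The purple bars are tallest, among patterns with a group apart, for Rh1>ClkDN at D10 high and Rh1>Ctrl at D10 low, with 11 genes each.

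The 11 genes that were high in Rh1>ClkDN at D10 alone had means 2.67 to 17.8 times that of the next group, with a median of 4.48 times. They were CG7896, CG2861, Vps13B, Dif, scra, CG14662, CG2614, nolo, Ktch, Ih and fred. All 11 rose with age in Rh1>ClkDN by edgeR's adjusted p, and none was called with age in Rh1>Ctrl. The sorting used the same libraries and largely fixes these age calls, so they are a description.

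CG7896 (FBgn0039728, chromosome 3R, 29983426 to 29990785, dm6) had the smallest p of all genes. Its levels were 49.3, 37.9 and 35.2 CPM in replicates 1 to 3 of Rh1>ClkDN at D10 and 1.93, 0.591 and 1.67 CPM in Rh1>ClkDN at D1. In Rh1>Ctrl they were 4.19, 3.37 and 7.86 CPM at D1 and 2.18, 1.39 and 1.05 CPM at D10. The lowest of the 3 high libraries was thus more than 4 times the highest of the other 9, which was replicate 3 of Rh1>Ctrl at D1. The interaction was 6.58 ± 0.69 (log2, SE; edgeR adjusted p = 0.000272), made of a genotype difference of -1.84 ± 0.48 at D1 and 4.75 ± 0.50 at D10.

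CG2861 (FBgn0029728, X, 4797231 to 4804862) followed the same course at a higher level. It stood at 131.4, 173 and 146 CPM in Rh1>ClkDN at D10 and at 8.15, 6.89 and 10.2 CPM in Rh1>ClkDN at D1. Rh1>Ctrl had 0.661, 2.24 and 11.01 CPM at D1 and 1.45, 1.39 and 1.68 CPM at D10. The D10 libraries of Rh1>ClkDN did not overlap any other, whereas replicate 3 of Rh1>Ctrl at D1 was as high as the young Rh1>ClkDN flies and unlike its fellows. The interaction was 5.62 ± 0.86 (edgeR adjusted p = 0.00724) and 4.07 ± 0.62 without that library (edgeR adjusted p = 0.00526).

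Vps13B, of the Vps13 family of lipid-transfer proteins, averaged 325 CPM in Rh1>ClkDN at D10 against 100.1, 70.4 and 61.5 CPM in Rh1>ClkDN at D1, Rh1>Ctrl at D1 and Rh1>Ctrl at D10. Its interaction was 1.89 ± 0.31 (edgeR adjusted p = 0.00966). Dif, an NF-kB factor of the Toll pathway, reached 314, 344 and 301 CPM in Rh1>ClkDN at D10, while Rh1>ClkDN at D1 had 71.4, 65.2 and 66.9 CPM. Rh1>Ctrl was lower still, from 24.2 to 29.0 CPM at D1 and from 37.4 to 39.4 CPM at D10, so no group overlapped another. The interaction of Dif was 1.74 ± 0.28 (edgeR adjusted p = 0.00989), and reads of Dif and of CG15141, which overlaps it on the other strand, cannot be told apart unless the counting used strand, which is not given in the sources used here. Dif was the only 1 of 21 tested innate immunity genes to be called, and the list's median interaction was 0.20 against 0.06 over all genes. Neither Toll itself (Tl, 0.50) nor cactus (cact, 0.44), the inhibitor that holds Dif in the cytoplasm, passed the test.

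The cytoskeletal scaffold anillin (scra) was at 35.6 to 47.2 CPM in Rh1>ClkDN at D10 and at 8.27 CPM or less in the other 9 libraries. Ih, the HCN channel that carries a hyperpolarization-activated current, was at 754 to 808 CPM in Rh1>ClkDN at D10, whereas the other 9 libraries lay between 76.9 and 184 CPM. Their interactions were 3.82 ± 0.65 and 1.78 ± 0.35 (edgeR adjusted p = 0.0125 and 0.027). Ih was the only 1 of 24 tested voltage-gated channel genes that was called with all 12 libraries. The adhesion protein gene fred, of the immunoglobulin superfamily, averaged 116.6 CPM in Rh1>ClkDN at D10 and at most 35.8 CPM in any other group.

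A further 6 positive genes rose with age in Rh1>ClkDN alone by these calls but had no single group apart, namely tst, CG6912, CG16812, mRF1, dpr9 and Pde9. The RNA helicase gene tst (twister), of the exosome's Ski complex, went from 93.9 to 103 CPM at D1 to 341 to 379.6 CPM at D10 in Rh1>ClkDN and lay between 18.5 and 25.8 CPM in all 6 Rh1>Ctrl libraries. Its interaction was 1.73 ± 0.30 (edgeR adjusted p = 0.0125). Reads of tst and of CG10375 on the other strand have the same limit as those of Dif. Pde9, a cGMP phosphodiesterase, averaged 242 and 1034 CPM in Rh1>ClkDN at D1 and D10, against 36.8 and 57.0 CPM in Rh1>Ctrl. The cell-surface recognition gene dpr9 was at 56.6 to 67.1 CPM and then 133 to 177 CPM in Rh1>ClkDN, against 13.2 to 35.2 CPM in Rh1>Ctrl, and was the only 1 of 31 tested Dpr and DIP genes to be called. Of the 56 genes called for the interaction, only CG6912 was called lower in Rh1>ClkDN at both ages. CG6912 was at 0.741 to 0.858 CPM at D1 and 2.93 to 4.78 CPM at D10 against 22.1 to 53.3 CPM in Rh1>Ctrl.

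The second large pattern was a low level in Rh1>Ctrl at D10 alone. It held CG6231, CG31036, tej, Ae2, CG30089, Yp1, CG10713, CG8329, Cht6, Cyp4ae1 and CG4374, all of which fell with age in Rh1>Ctrl and had no call with age in Rh1>ClkDN. The sorting largely fixes these age calls too. In the 9 of these genes with more than 3 counts in some library of every group, the level in Rh1>Ctrl at D10 was 2.02 to 10.1 times below that of the next lowest group.

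CG6231 (FBgn0038720, 3R, 19616024 to 19632718) was at 142, 125 and 106 CPM in Rh1>Ctrl at D1 and at 25.8, 15.9 and 23.4 CPM at D10. In Rh1>ClkDN it was at 53.8, 57.1 and 71.0 CPM at D1 and at 54.0, 57.5 and 61.7 CPM at D10. The Rh1>Ctrl groups thus bracketed both Rh1>ClkDN groups, which overlapped each other. The interaction was 2.42 ± 0.34 (edgeR adjusted p = 0.00401).

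CG31036 (FBgn0051036, 3R, 29908107 to 29912892) was alike in both genotypes at D1, at 26.4, 37.8 and 31.7 CPM in Rh1>ClkDN and 30.6, 39.5 and 35.5 CPM in Rh1>Ctrl. At D10 it stood at 63.5, 50.3 and 45.9 CPM in Rh1>ClkDN and 9.44, 13.2 and 12.1 CPM in Rh1>Ctrl. The D1 groups overlapped and the D10 groups lay on either side of them. The interaction was 2.35 ± 0.38 (edgeR adjusted p = 0.00966), with an age difference of -1.61 ± 0.28 in Rh1>Ctrl and 0.73 ± 0.26 in Rh1>ClkDN, the latter not called.

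The Tudor-domain gene tejas (tej, FBgn0033921, 2R, 14300103 to 14302353), known for its part in the piRNA pathway of the germ line, was lowest in old controls. It was at 5.08, 2.08 and 4.61 CPM in Rh1>Ctrl at D10 and at 31.9, 27.8 and 40.3 CPM at D1. Rh1>ClkDN had 49.1, 98.4 and 81.3 CPM at D1 and 58.8, 62.0 and 73.5 CPM at D10. The Rh1>Ctrl groups did not overlap each other or Rh1>ClkDN, while the Rh1>ClkDN ages overlapped. The interaction was 2.74 ± 0.46 (edgeR adjusted p = 0.0101). In the annotation tej ends 7 bases from the end of Ih, on the opposite strand, and the 2 genes had different groups apart.

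Ae2, an anion exchanger of the bicarbonate transporter family, was at 63.2 to 68.6 CPM in Rh1>Ctrl at D10 and at 114 to 202 CPM in the other 9 libraries (interaction 1.83 ± 0.30, edgeR adjusted p = 0.0101). The cytochrome P450 gene Cyp4ae1 was at 1.45 CPM or less there and at 4.72 to 27.3 CPM elsewhere, and was the only 1 of 58 tested P450 genes to be called. The chitinase gene Cht6 averaged 8.85 CPM in Rh1>Ctrl at D10 against 27.7 to 78.2 CPM in the other groups. Yp1, a yolk protein gene of the fat body and female germ line support cells, had 0 counts in all 3 libraries of Rh1>Ctrl at D10, so no size is given for its interaction (edgeR adjusted p = 0.0179). Against a floor of 3 counts per library, Yp1 was at least 4.27-fold higher in Rh1>ClkDN at D10 and at least 3.35-fold higher in Rh1>Ctrl at D1. In Rh1>ClkDN at D1 it was at 2.57, 0.788 and 0.741 CPM, near that floor (0.628 to 2.08 CPM in the Rh1>Ctrl D10 libraries). By this floor these 2 groups cannot be told apart, so a low level in Rh1>Ctrl at D10 alone is uncertain for Yp1. Yp1 was the only 1 of 11 tested hemocyte and fat body markers to be called, and the summed CPM of that list ran from 586 to 686 and 408 to 1608 in Rh1>Ctrl at D1 and D10 and from 680 to 2152 and 1314 to 1683 in Rh1>ClkDN. The lipophorin gene apolpp alone made up 56.2% to 92.2% of these sums, and without it they ran from 95.4 to 104 and 136 to 179 in Rh1>Ctrl and from 113 to 167 and 139.9 to 146 in Rh1>ClkDN. The part of such cells in the result for Yp1 was not tested. CG4213, CG34457, CG3690 and CG4374 were also called with 3 counts or fewer in every library of Rh1>Ctrl at D10.

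**Figure D3:**
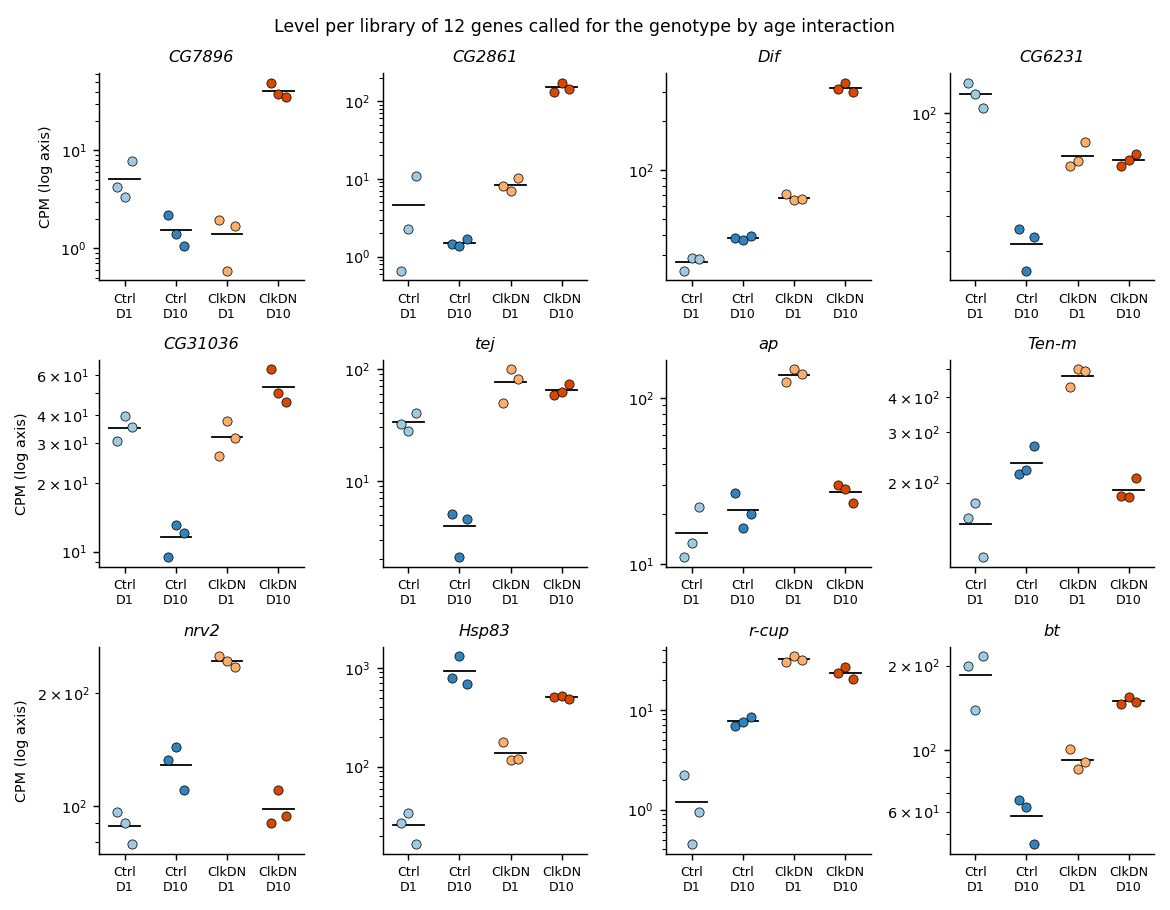
CPM per library on log axes (y) for 12 called genes in the 4 groups (x: Rh1>Ctrl at D1 and D10, Rh1>ClkDN at D1 and D10); points are replicates 1 to 3 from left to right and the line is their mean. In CG7896, CG2861 and Dif the D10 libraries of Rh1>ClkDN lie above all others, in CG6231, CG31036 and tej those of Rh1>Ctrl at D10 lie below, and in ap, Ten-m and nrv2 those of Rh1>ClkDN at D1 lie above.

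The genes ap, Ten-m and nrv2 were high in Rh1>ClkDN at D1 alone, and all 3 fell with age in that genotype, which the sorting largely fixes. The LIM-homeodomain gene apterous (ap, FBgn0267978, 2R, 5706202 to 5727525) was at 124, 148 and 139 CPM in Rh1>ClkDN at D1 and at 29.9, 28.4 and 23.5 CPM at D10. Rh1>Ctrl had 11.01, 13.5 and 22.0 CPM at D1 and 26.9, 16.6 and 20.1 CPM at D10. The young Rh1>ClkDN libraries were more than 4 times any other, and the D10 groups of the 2 genotypes overlapped. The interaction was -2.81 ± 0.40 (edgeR adjusted p = 0.00401), from a genotype difference of 3.16 ± 0.29 at D1 and 0.35 ± 0.28 at D10, the latter not called.

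Ten-m (FBgn0004449, 3L, 22293044 to 22407863), a teneurin that matches synaptic partners, was at 434.5, 499 and 492 CPM in Rh1>ClkDN at D1 and at 180.2, 178 and 207 CPM at D10. In Rh1>Ctrl it was at 149.8, 170.1 and 109 CPM at D1 and at 215, 222 and 268 CPM at D10. The young Rh1>ClkDN libraries lay above all others, and at D10 the order of the genotypes was turned, without overlap, although that difference of -0.32 ± 0.22 was not called. The interaction was -2.05 ± 0.31 (edgeR adjusted p = 0.00621).

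The sodium pump beta subunit gene nrv2 (FBgn0015777, 2L, 6789770 to 6798862) was at 251, 244 and 235 CPM in Rh1>ClkDN at D1 and at 90.0, 110.0 and 93.9 CPM at D10. Rh1>Ctrl had 96.3, 90.2 and 78.9 CPM at D1 and 133, 143 and 110.1 CPM at D10. Only the young Rh1>ClkDN libraries stood clear, and the 2 D10 groups met at about 110.0 CPM. The interaction was -1.85 ± 0.29 (edgeR adjusted p = 0.00797). As a glial marker nrv2 was the only 1 of 12 called, while summed CPM of the 12 ran from 1193 to 1283 and 1767 to 1837 in Rh1>ClkDN at D1 and D10 and from 370.1 to 498 and 478 to 631 in Rh1>Ctrl. The glutamate transporter gene Eaat1 made up 8.45% to 72.1% of these sums. Without Eaat1 they ran from 633 to 738 and 509 to 554 in Rh1>ClkDN at D1 and D10. In Rh1>Ctrl they then ran from 324 to 426 and 386 to 577.5. They were highest in Rh1>ClkDN at D1, but they still include nrv2 itself, so they do not describe the other markers apart from it. The part of glial RNA in the result was not tested.

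Mp, a collagen of the multiplexin family, and Ncc69, a sodium-potassium-chloride cotransporter, also fell with age in Rh1>ClkDN and were not called with age in Rh1>Ctrl. Ncc69 was low in Rh1>ClkDN at D10 alone, at 82.2 to 99.0 CPM against 136 to 322 CPM elsewhere, and replicate 3 of Rh1>Ctrl at D1 was the lowest of those 9. Mp stood at 365 to 464 and then 216 to 234 CPM in Rh1>ClkDN, above the 35.9 to 85.2 CPM of Rh1>Ctrl. Their interactions were -1.79 ± 0.35 and -1.53 ± 0.32 (edgeR adjusted p = 0.0225 and 0.0326).

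The chaperone gene Hsp83 rose with age in both genotypes, and by less in Rh1>ClkDN. Hsp83 (FBgn0001233, 3L, 3192969 to 3197059), the fly Hsp90 chaperone, was at 26.9, 34.1 and 16.4 CPM in Rh1>Ctrl at D1 and at 794, 1307 and 684.5 CPM at D10. Rh1>ClkDN had 176, 116 and 118 CPM at D1 and 511.5, 514 and 487 CPM at D10. None of the 4 groups overlapped, and Rh1>ClkDN was above Rh1>Ctrl at D1 and below it at D10. The age difference was 5.16 ± 0.34 in Rh1>Ctrl and 1.88 ± 0.30 in Rh1>ClkDN, which gives an interaction of -3.28 ± 0.42 (edgeR adjusted p = 0.00234). Hsp83 overlaps CG14966 on the other strand.

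The small heat shock gene Hsp26 was lowest in Rh1>Ctrl at D1, at 0.881, 0.898 and 3.15 CPM, against 10.4 to 27.0 CPM in the other 9 libraries. Its interaction was -3.35 ± 0.61 (edgeR adjusted p = 0.0179). Of 22 heat shock genes tested, these 2 were called, both negative. At an unadjusted edgeR p under 0.05, 9 were negative (40.9%, against 4.60% of all genes tested) and 1 positive (4.55%, against 8.18%). Of the 22, 4 lay above 0, against 4860 of all 9135 genes tested. Their median was -1.03 against 0.06 over all genes. Without replicate 2 of Rh1>Ctrl at D10 the median was -0.54. Hsp68 (-2.21, edgeR adjusted p = 0.0546) and Hsp70Ab (-3.75, edgeR adjusted p = 0.0827) missed the threshold, and Hsp68 passed it without replicate 3 of Rh1>Ctrl at D1. The constitutive Hsc70-4 averaged 224, 361, 274 and 929.9 CPM in Rh1>ClkDN at D1, Rh1>ClkDN at D10, Rh1>Ctrl at D1 and Rh1>Ctrl at D10 and was not called. Hsp70 copies are near-identical, so their counts are uncertain, and Hsp70Bb pointed the other way (1.27, not called).

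Rh1>Ctrl at D1 was also the low group for r-cup, Ppm1, CG8745 and CG10680. The gene r-cup (FBgn0031142, X, 21023390 to 21025888), of a family transcribed late in spermatogenesis, was at 2.20, 0.449 and 0.943 CPM in Rh1>Ctrl at D1 and at 6.90, 7.62 and 8.37 CPM at D10. Rh1>ClkDN had 30.2, 34.3 and 31.7 CPM at D1 and 23.6, 27.0 and 20.2 CPM at D10. The 4 groups did not overlap, and Rh1>ClkDN was the higher genotype at both ages by a smaller margin at D10. The interaction was -3.06 ± 0.55 (edgeR adjusted p = 0.0179). Summed CPM of 13 testis markers was 626 to 934 and 829 to 1022 in Rh1>ClkDN at D1 and D10 and 544 to 625 and 132 to 449 in Rh1>Ctrl. A single gene, bol, made up 62.6% to 96.0% of these sums, and without it they ran from 36.4 to 48.2 and 49.99 to 65.3 in Rh1>ClkDN and from 24.9 to 70.8 and 40.2 to 49.2 in Rh1>Ctrl. Their part in the result was not tested. Ppm1, a PP2C-type protein phosphatase, was at 0.943 to 2.69 CPM in Rh1>Ctrl at D1 and 8.71 to 20.5 CPM elsewhere.

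Of the genes of light detection, ninaD was called. The scavenger receptor gene ninaD, which serves the uptake of carotenoids for the chromophore, was high in Rh1>Ctrl at D10 alone, at 93.6, 63.7 and 61.8 CPM, against 11.9 to 15.7 CPM in Rh1>Ctrl at D1 and 3.35 to 10.2 CPM in the 6 Rh1>ClkDN libraries. Its interaction was -2.32 ± 0.50 (edgeR adjusted p = 0.0391), and it was the only 1 of 33 tested phototransduction genes called with all 12 libraries, with a list median of 0.04. The arrestin gene Arr2, whose product binds activated rhodopsin, averaged 423 and 426 CPM in Rh1>ClkDN and 1523 and 4613 CPM in Rh1>Ctrl at D1 and D10, and its interaction of -1.59 missed the threshold (edgeR adjusted p = 0.0546) and passed it without replicate 3 of Rh1>Ctrl at D1. The major rhodopsin gene ninaE averaged 1120 and 1152 CPM in Rh1>ClkDN and 4215 and 9815 CPM in Rh1>Ctrl (interaction -1.18, edgeR adjusted p = 0.168). All 7 rhodopsins tested had a value below 0, with a median of -1.18, while 4860 of all 9135 genes tested lay above 0. Of these 7, 0 were called by edgeR. At an unadjusted edgeR p under 0.05, 0 of them were positive and 3 negative (42.9%, against 4.60% of all genes tested). Rh3, Rh4, Rh5 and Rh6, of the inner photoreceptors, were higher in replicate 1 of Rh1>ClkDN at D1 than in its fellows (Rh4 at 85.3 CPM against 12.8 in both), and without this library the median was -0.20. Without replicate 3 of Rh1>Ctrl at D1 it was -0.89.

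Eip75B, a nuclear receptor of the ecdysone response, shared the ninaD pattern at 486 to 521 CPM in Rh1>Ctrl at D10 against 162 to 253 CPM in the other 9 libraries (interaction -1.41 ± 0.31, edgeR adjusted p = 0.047), and was the only 1 of 15 tested genes of its list. The Fos gene kay was low in Rh1>ClkDN at D1 alone, at 185 to 227 CPM against 326 to 606 CPM elsewhere (interaction 1.37 ± 0.30, edgeR adjusted p = 0.0404), the only 1 of 14 immediate early and stress genes. The FOG cofactor gene ush was high in Rh1>Ctrl at D1 alone, averaging 139 CPM against 53.4 to 74.5 CPM in the other groups. Ddc, which makes dopamine and serotonin, averaged 44.1 and 24.7 CPM in Rh1>ClkDN and 15.8 and 33.5 CPM in Rh1>Ctrl, a crossing in which neither age effect was called (interaction -1.90 ± 0.40, edgeR adjusted p = 0.0326).

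The muscle gene bt (FBgn0005666, chromosome 4, 724400 to 776474), which encodes the giant protein projectin, crossed between genotypes. It was at 101, 85.3 and 90.4 CPM in Rh1>ClkDN at D1 and at 146, 155 and 148 CPM at D10. In Rh1>Ctrl it was at 199, 139 and 216 CPM at D1 and at 66.1, 62.3 and 45.8 CPM at D10. At each age the genotypes did not overlap, with Rh1>Ctrl higher at D1 and lower at D10. The interaction was 2.37 ± 0.33 (edgeR adjusted p = 0.00391). Summed CPM of 10 muscle markers ran from 325 to 438 and 282 to 314 in Rh1>ClkDN at D1 and D10 and from 719 to 876 and 245.5 to 568.5 in Rh1>Ctrl. None of the glial, hemocyte and fat body, testis or muscle markers used here was at 0 in all libraries. The other 8 tested members of the muscle list were not called, and its median interaction was -0.41, opposite in sign to bt. In the list 3 of 9 lay above 0, against 4860 of all 9135 genes tested. At an unadjusted edgeR p under 0.05, 2 of the 9 were positive (22.2%, against 8.18% of all genes tested) and 0 negative. These 2 were bt and sls (interaction 0.95), and sls averaged 251 and 111 CPM in Rh1>Ctrl at D1 and D10. The part of muscle RNA was not tested.

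The clock genes themselves were not called. For all 8 core clock genes tested, the adjusted p in edgeR lay between 0.459 and 0.881. The interaction was 0.66 ± 0.36 for cwo, 0.51 ± 0.45 for Pdp1, -0.47 ± 0.47 for per, -0.19 ± 0.34 for tim, -0.17 ± 0.31 for vri, -0.27 ± 0.47 for cyc, -1.14 ± 0.65 for cry and -0.63 ± 0.42 for Clk. Clk alone passed under another setting, limma-voom with sample quality weights (-1.04, adjusted p = 0.0186). The direct targets tim and vri were lower in Rh1>ClkDN by a like amount at both ages, at -2.37 ± 0.25 and -1.95 ± 0.23 at D1 and -2.57 ± 0.25 and -2.12 ± 0.23 at D10 (log2, SE). For per the differences were -1.72 ± 0.34 and -2.19 ± 0.35. For cwo, a repressor that acts back on the same sites, they were -2.15 ± 0.26 and -1.49 ± 0.26, and cwo fell with age in both genotypes, by 1.06 in Rh1>ClkDN and 1.72 in Rh1>Ctrl on the log2 scale.

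Of 38 gene lists with a tested member, 27 held no called gene, and 12 of the 56 called genes belonged to any list. Over all 9135 genes tested, 4860 lay above 0. At an unadjusted edgeR p under 0.05, 8.18% of all genes tested were positive and 4.60% negative. The 80 ribosomal protein genes tested had a median of -0.80, 6 lay above 0, and 0 were called in either direction by edgeR. At an unadjusted edgeR p under 0.05, 0 of them were positive and 5 negative (6.25%). Summed ribosomal protein CPM was 4352 in replicate 1 of Rh1>ClkDN at D1 and 3999 in replicate 2 of Rh1>Ctrl at D10, against 1089 to 2332 in the other 10 libraries, and the median was -0.057, with 35 above 0, without the first and -0.39 without the second. The 47 chemoreceptor genes tested had a median of 1.72, 37 lay above 0, and 0 were called. At an unadjusted edgeR p under 0.05, 10 of them were positive (21.3%) and 2 negative (4.26%). Without replicate 3 of Rh1>Ctrl at D1, however, the chemoreceptor median was 0.013. The same library moved the median of 18 segmentation genes from 1.36 to -0.67 and that of the 31 Dpr and DIP genes from 0.57 to 0.06. Over all genes tested the median was 0.06 with it and -0.03 without it.

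The number of called genes depended on single libraries. Leaving out 1 library at a time gave between 12 genes, without replicate 1 of Rh1>ClkDN at D10, and 117 genes, without replicate 2 of Rh1>Ctrl at D10. It fell to 12 to 23 genes without any 1 of the 6 Rh1>ClkDN libraries or replicate 3 of Rh1>Ctrl at D10, and rose to 81 to 117 genes without any 1 of the other 5 Rh1>Ctrl libraries. Only 10 genes were called in all 12 of these fits: CG7896, CG2861, CG6231, CG31036, tej, ap, Ten-m, nrv2, Hsp83 and bt. Of the 56, 25 were called in at least 6 of the 12 fits, and CG5953 was called in 1.

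**Figure D4:**
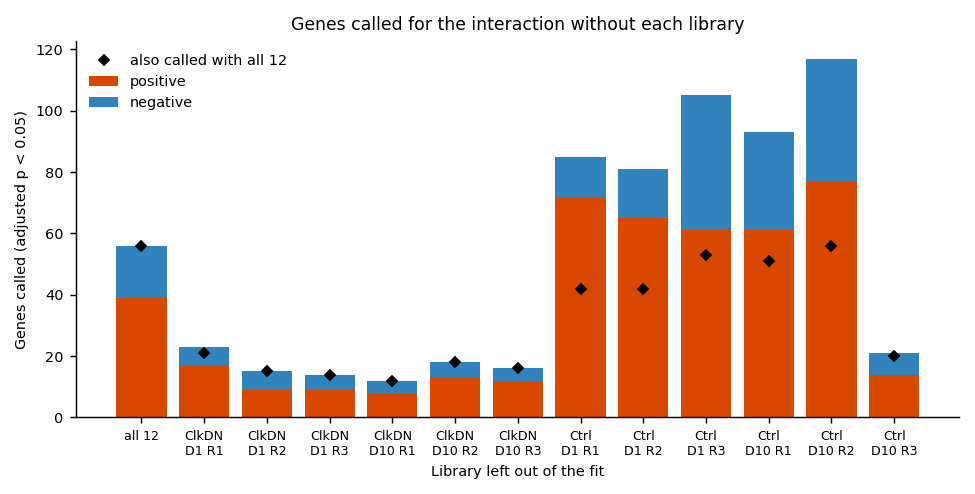
Stacked bars give the genes called for the interaction (y axis, edgeR adjusted p under 0.05), positive in orange and negative in blue, with all 12 libraries and without each library named on the x axis; diamonds mark how many of them were also called with all 12. The count falls to 12 without replicate 1 of Rh1>ClkDN at D10 and reaches 117 without replicate 2 of Rh1>Ctrl at D10.

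Without replicate 3 of Rh1>Ctrl at D1 the interaction was called for 105 of 8821 genes (1.19%), of which 61 were positive (0.692%) and 44 negative (0.499%). Of the 56 genes, 53 were among them, and CG4374, CG11089 and CG5953 were not. The other 52 were called only without this library. In 22 of the 28 negative ones among the 52 (78.6%) the left-out library was the highest of its group, and in 1 of the 24 positive ones (4.17%), against 45.4% of all genes tested. These genes were chosen by leaving that library out, which largely fixes both shares, so they are a description.

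The named negative genes gained were all highest in young Rh1>ClkDN flies. The transcription factor gene tey was at 276, 390.2 and 377 CPM in Rh1>ClkDN at D1 and at 92.2, 87.2 and 88.5 CPM at D10. In Rh1>Ctrl it was at 0.22, 0 and 7.23 CPM at D1 and at 2.54, 2.77 and 4.19 CPM at D10. Replicate 3 of Rh1>Ctrl at D1 was thus above all 3 old controls, and its fellows were below them. The interaction was -2.60 with it (edgeR adjusted p = 0.27) and -6.53 ± 0.64 without it (edgeR adjusted p = 0.000659), where the remaining Rh1>Ctrl level at D1 rests on very few counts.

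The retinal determination gene dac averaged 45.7 and 14.1 CPM in Rh1>ClkDN at D1 and D10, and stood at 3.75, 5.39 and 17.9 CPM in Rh1>Ctrl at D1 and 11.6 to 15.9 CPM at D10. Its interaction went from -2.35 to -3.27 ± 0.44 without replicate 3 (edgeR adjusted p = 0.0946 and 0.00331). Lim3 and Awh, which like ap encode LIM-homeodomain proteins, were at 16.4 and 10.7 CPM in that library and at 1.80 CPM or less in its fellows. For Lim3 the interaction was -1.81 with it and -4.01 ± 0.60 without it (edgeR adjusted p = 0.439 and 0.00526), while Awh then had at most 3 counts in any library of young controls and is given no size. CG43689, the other named negative gene, went from -2.03 to -3.09.

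In a list of homeobox genes written after these values were seen, 71 genes were tested, 1 (ap) was called with all 12 libraries, and 10 more (Lim3, Awh, Vsx1, inv, Abd-B, hbn, tup, Rx, slou and otp) were called without replicate 3 of Rh1>Ctrl at D1, all negative. All 10 averaged less in Rh1>ClkDN at D10 than at D1. Over all genes tested, 0.613% were called with all 12 libraries, and 0.499% were called negative without replicate 3 of Rh1>Ctrl at D1. In the left-out library the 10 were at 3.15 to 26.1 CPM, against at most 3.96 CPM in its fellows and 6.22 to 373 CPM in Rh1>ClkDN at D1. That library was the highest of its group for 49 of the 71 homeobox genes (69.0%), against 45.4% of all genes tested. Some control levels rest on few counts. Abd-B was at 0 CPM in replicates 1 and 2 of Rh1>Ctrl at D1 and at 0, 3.46 and 1.05 CPM in Rh1>Ctrl at D10. Since the list was written with the values known, its counts are a description.

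Among positive genes gained were the retinophilin gene rtp, Rgk1, a GTPase of the RGK family, Stacl, CHKov1 and CG43867. In rtp, whose product partners the myosin NINAC in the rhabdomere, Rh1>Ctrl fell from 708, 569 and 472 CPM at D1 to 354, 286 and 278 CPM at D10, while Rh1>ClkDN was at 166 to 226 CPM and then 244 to 296.5 CPM. Stacl averaged 2253 and 1282 CPM in Rh1>ClkDN and 1119 and 236 CPM in Rh1>Ctrl, where it fell with age. CHKov1 was the most genotype-dependent of the 5, at 263 to 347 and 707.5 to 739 CPM in Rh1>ClkDN against 5.23 to 14.8 CPM in Rh1>Ctrl. In each of these 5 genes replicate 3 was the lowest of Rh1>Ctrl at D1, and the interactions moved by less than in the negative genes: from 1.38 to 1.53 for rtp, 1.61 to 1.84 for Rgk1, 1.43 to 1.60 for Stacl, 1.91 to 2.23 for CHKov1 and 1.33 to 1.57 for CG43867. The edgeR adjusted p of these 5 ran from 0.0532 to 0.0913 with the library and from 0.00428 to 0.0135 without it.

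**Figure D5:**
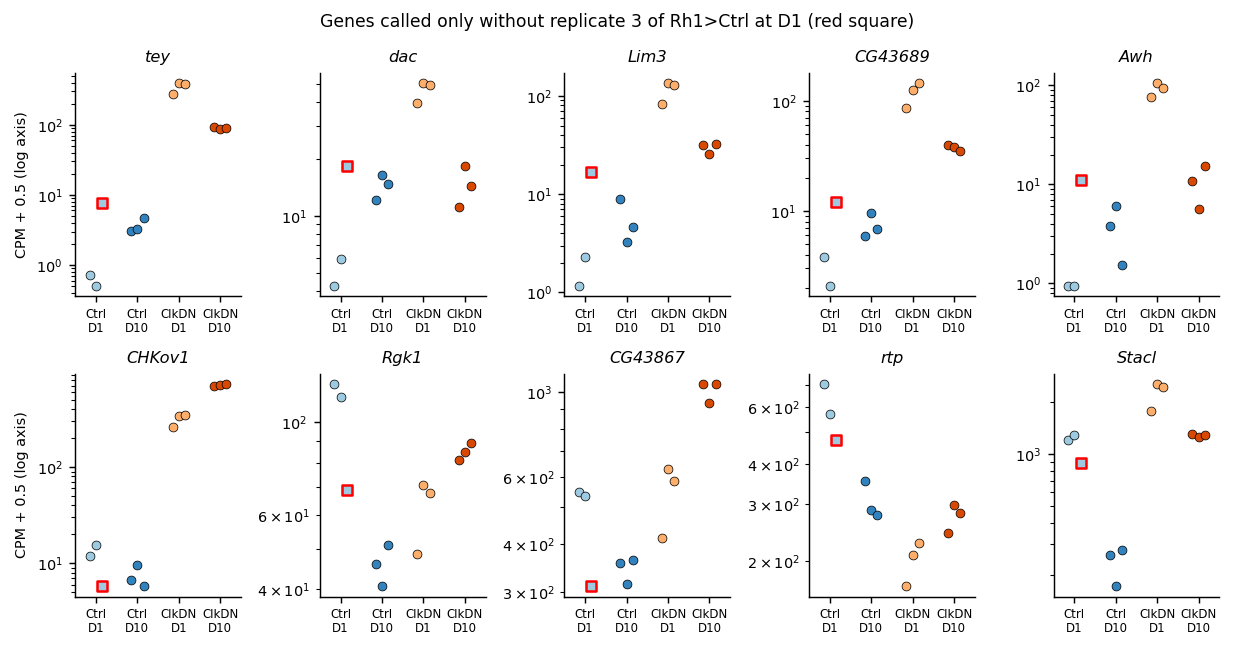
CPM plus 0.5 per library on log axes (y) in the 4 groups (x) for 10 genes called only without replicate 3 of Rh1>Ctrl at D1, which is the red square; the upper row holds 5 negative genes and the lower row 5 positive genes. The square is the highest of its group in the upper row and the lowest of its group in the lower row.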

How the data were processed

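RNA from tagged photoreceptor nuclei was sequenced in 12 libraries, 3 per group. The authors deposited whole-number counts per gene in 1 table; its name says normalized, but library totals differ 4.15-fold and the values were treated as raw counts. The submitters' processing notes name Trimmomatic, STAR, SAMtools and DESeq2 and the dm6 (BDGP6) build; annotation release and strand setting are not given in the sources used here. Gene names and positions came from Ensembl release 115 (13866 of 13929 IDs matched). A gene was tested where 3 or more libraries had 10 or more counts (9135). edgeR 4.0.16 (R 4.3.3) fitted 4 group means with TMM factors on full totals and the quasi-likelihood F test (8 residual degrees of freedom before moderation), with Benjamini-Hochberg adjustment over all genes at 0.05. CPM are TMM-scaled, and SE was the size of the log2 difference over the root of F. Groups came from titles and genotype labels; p-values measure the spread between libraries of pooled flies.

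Genes named were the 12 positive and 12 negative called genes with the smallest p and a mean of at least 20 counts, those called in all 12 leave-one-out fits, called members of the lists, the core clock list, and the 5 positive and 5 negative with the smallest p called only without replicate 3 of Rh1>Ctrl at D1. Others were named after their values were seen. The members and lists were chosen with earlier results of these data known. Alternatives were other size factors, filters, tools (DESeq2 1.42.0, limma 3.58.1), a replicate block and left-out libraries. With 3 libraries per group, intervals cover replicate spread only.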

Additional observations from a re-analysis of the deposited data

Results flagged for a closer look

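Each of these results is listed because a direct test found the genotype effect to differ between D1 and D10 (edgeR's quasi-likelihood test of the interaction, adjusted p under 0.05); this held for 56 genes in all. Positive interactions (log2) were CG7896 6.58, CG2861 5.62, scra 3.82, Cyp4ae1 3.52, CG6912 2.95, tej 2.74, CG6231 2.42, bt 2.37, CG31036 2.35, Vps13B 1.89, Ae2 1.83, dpr9 1.79, Ih 1.77, Dif 1.74, tst 1.73 and kay 1.37. Negative ones were Hsp26 -3.35, Ppm1 -3.28, Hsp83 -3.28, r-cup -3.06, Prat2 -3.02, ap -2.81, ninaD -2.32, Ten-m -2.05, Ddc -1.90, nrv2 -1.85, Ncc69 -1.79, CG8745 -1.65, Mp -1.53 and Eip75B -1.41. Yp1, with a group at 0, is given by its adjusted p of 0.0179 alone.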

How the results depend on the processing

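The sign of all 56 called genes held in every alternative that tested them, but their number did not hold. Against 56 (39 positive, 17 negative), the interaction was called for 108 genes (56 and 52) with library totals in place of TMM, 105 with no filter on low counts, 136 with a mean count of at least 50, 269 with DESeq2, 586 with limma-voom quality weights, 306 without both replicate 3 of Rh1>Ctrl at D1 and replicate 2 of Rh1>Ctrl at D10, and 11 at an adjusted p under 0.01. A replicate block gave 30. DESeq2's size factors, voom, limma on log2 CPM, robust edgeR and, chosen after seeing the data, library sizes over tested genes (71) stayed within 1.5 times. Like totals did not mean the same genes. Of the 56, voom kept 40 and limma on log2 CPM kept 48 and 52 with 0.5 and 1 added. DESeq2's size factors and library sizes over tested genes kept 55 each, and robust edgeR kept all 56. Leaving out 1 library gave 12 to 117 for the interaction, 111 to 604 against 287 for age in Rh1>ClkDN, 135 to 332 against 235 for age in Rh1>Ctrl, 827 to 1894 against 1216 for genotype at D1 and 1150 to 2364 against 1834 for genotype at D10. DESeq2 called 562 and 531 for age in Rh1>ClkDN and Rh1>Ctrl, and the replicate block 146 for age in Rh1>Ctrl. With settings chosen for these effects after seeing the data, quality weights called 2024 and 1170 for age and 3123 and 3885 for genotype at D1 and D10, leaving out both libraries 1267 and 691 for age and 2688 and 2758 for genotype, a mean count of at least 50 gave 442 and 376 for age, and voom 557 for age in Rh1>ClkDN. A gap over 2 times the range of the other means left 16 of 37 genes with a group apart. Same-numbered libraries showed no clear pairing. None of 18 pairs correlated above 0.1 (-0.09 to 0.07), and 0 samples correlated best with their own number. With 3 libraries per group, such correlations cannot show whether same-numbered libraries were prepared together. Weak clock values changed sign: per was 0.265, tim 0.036 and cyc 0.098 without both libraries, and with 1 library left out tim ran from -0.336 to 0.028 and vri from -0.299 to 0.021, both highest without replicate 3 of Rh1>Ctrl at D1. The causes were not tested. Depth limits the genes with 3 counts or fewer in Rh1>Ctrl at D10, which holds the shallowest library (1356529 counts).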

Other observations

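Called genes lay near one another more often than tested genes in general: 15 of the 56 (26.8%) had another called gene within 100 kb, against 10.7% of genes tested that had a called gene (other than themselves) in that distance. On 3R, CG31036, Vps13B and CG7896 fell within 82.7 kb of one another, and kay, also called, within a stretch of 225 kb that held 30 tested genes. These neighbours did not share a pattern: Vps13B and CG7896 were high in Rh1>ClkDN at D10 alone, CG31036 was low in Rh1>Ctrl at D10 alone and kay was low in Rh1>ClkDN at D1 alone. Such neighbours were looked for after the called genes were known, and the shares are a description without a test.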
